A study of Mus musculus with 47 samples.

Results

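The cytochrome P450 and glutathione transferase families were followed in mouse lung after sensitization and challenge with ragweed. The members are all genes whose array symbol is Cyp with a number, a letter and a number, or starts with Gsta, Gstm, Gstp, Gstt, Gstk, Gsto, Gstz or Mgst, with Cyp2f2 left out. Taken from probe sets annotated with a single symbol, they are 78 genes with 188 probe sets, 54 of them Cyp genes and 24 Gst or Mgst genes, among 16366 genes on the 6 array types. Mice were sensitized on days 0 and 3 and given intratracheal challenges on days 10 and 17, either with ragweed pollen protein or with PBS, and lungs were taken 24 h or 72 h later. Treatment and time give 4 groups with 2 samples each, coded 1a and 1b. Alum, the adjuvant of the sensitization, is named for the ragweed mice alone, so ragweed and alum cannot be told apart. Strain, sex, age and dose are not given in the sources used here, nor whether the lettered samples came from different mice. The p-values therefore measure only how far these samples spread, and that spread may be technical.

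Cytochrome P450 enzymes are haem proteins of the endoplasmic reticulum and mitochondria that insert oxygen into lipophilic substrates, with electrons passed to them by reductases, cytochrome b5 or ferredoxin. The Cyp1 to Cyp4 families act mostly on foreign compounds, fatty acids and eicosanoids, whereas the higher numbers act mainly on sterols, bile acids and vitamins. Glutathione transferases join glutathione to reactive products, and the classes differ in sequence and preferred substrate: alpha (Gsta), mu (Gstm), pi (Gstp), theta (Gstt), kappa (Gstk), omega (Gsto), zeta (Gstz) and the membrane-bound Mgst. In lung much of this activity lies in the club cells of the airway and in alveolar type II cells.

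Precision is limited by how many arrays there are. The array intensities were compared on the log2 scale as ragweed minus PBS of the same time, each with its standard error (SE) and n = 2 samples per group. A gene was called when its p-value, adjusted over all 25250 probe sets tested, was below 0.05. Lower values were raised to a floor, an intensity of 292 on the A array, 356 on B and 245 on C, and a probe set was tested when it lay above the floor on at least 2 arrays. Replicate arrays correlated at 0.947 or more on A, while the lowest value on B was 0.858 and on C 0.781. The lung label was borne out by alveolar type II markers, of which 9 of 10 were tested and 8 differed by at most 0.5 at both times, with a summed intensity between 161231 and 204231 in all samples. Of 10 hepatocyte markers 6 were tested, and the highest of their mean intensities was 366.

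Of the 78 genes, 74 had a probe set in the tables used and 49 passed the floor, 28 of the Cyp and 21 of the Gst or Mgst genes. All 8 samples lay above the floor for 31 of the 49. The 25 genes that were not tested were 24 Cyp genes and Gstm6, 18 of them above the floor on no array and 7 on 1 array. They included the bile acid enzymes Cyp7a1 and Cyp8b1, the steroid enzymes Cyp11a1 and Cyp17a1, the retinoic acid hydroxylase Cyp26a1, the vitamin D enzymes Cyp24a1 and Cyp27b1, and Cyp3a11, Cyp3a16 and Cyp3a25, which are chiefly known from liver. A value below the floor does not show that a gene was not expressed. No value is given for Cyp2d9, Cyp4v3, Gsta1 and Gstz1 in the main comparison, since their probe sets lay outside the tables used. On version 2 of the A array, a Cyp4v3 probe set differed by -0.08 ± 0.13 at 72 h. Its first-version probe sets went both ways at 72 h and were not called, with 0.50 as a bound (PBS at the floor of 265, ragweed 380 and 369, adjusted p = 0.205) and -0.34 (adjusted p = 0.807). On version 2 Gstz1, which isomerises maleylacetoacetate in tyrosine breakdown, differed by -0.47 ± 0.20 (adjusted p = 0.278).

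Few members differed between ragweed and PBS beyond the spread of the samples. At 24 h 1 of 49 members was called (2.04%), against a background of 0.366% of the 12840 genes tested. At 72 h 2 of 49 were called (4.08%, background 0.646%), and in the mean of both times 2 of 49 (4.08%, background 0.919%). At an unadjusted p below 0.05 the counts were 7 members at 24 h (14.3%, background 9.06%) and 10 at 72 h (20.4%, background 10.6%). In the mean there were 8 (16.3%, background 11.9%). The median log2 difference of the members was 0.04 at 24 h and -0.02 at 72 h, and that of all genes was 0.00 at both times. Both differences lay within 0.5 of zero for 31 of 49 members and for 8394 of the 12840 genes.

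**Figure D1:**
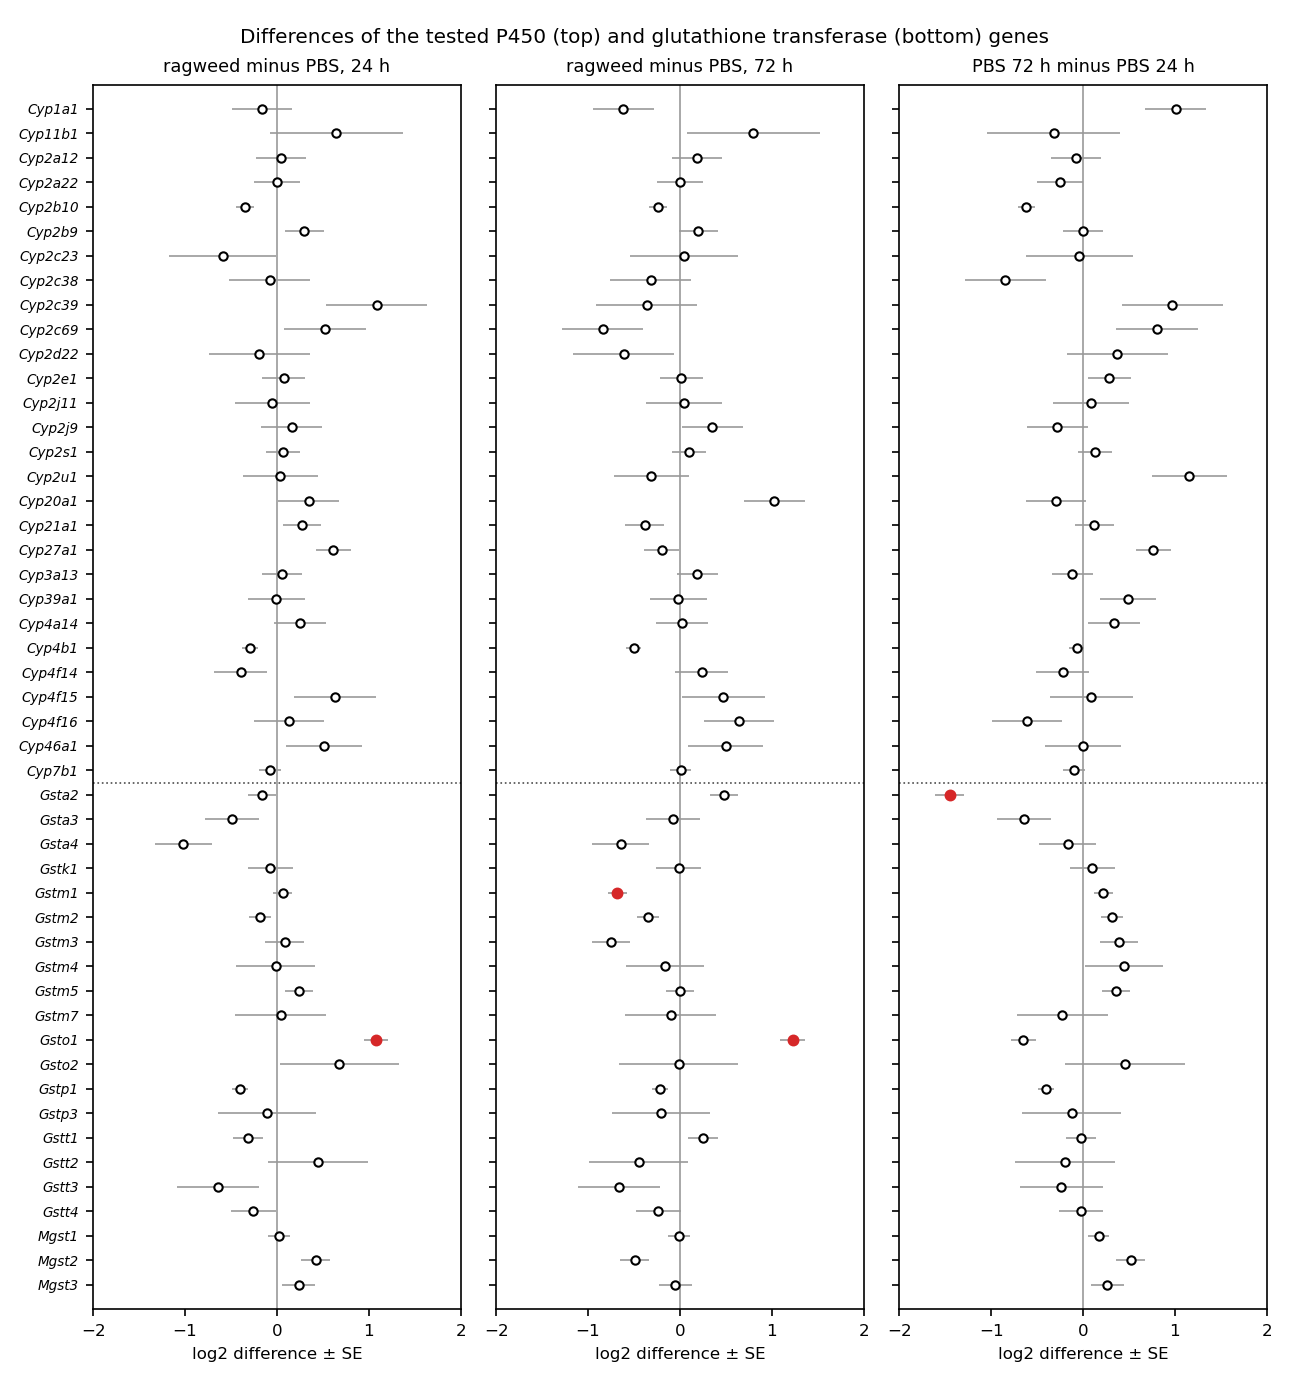
Log2 difference ± SE (x axis) of each of the 49 tested genes (y axis), P450 genes above the dotted line and glutathione transferases below it, for ragweed minus PBS at 24 h and at 72 h and for PBS at 72 h minus PBS at 24 h. Filled red points mark genes with an adjusted p below 0.05: Gsto1 at both times, Gstm1 at 72 h, and Gsta2 between the PBS times.

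The gene that stood apart was Gsto1, the omega class enzyme, which reduces dehydroascorbate and methylated arsenic and deglutathionylates proteins. Its intensity was 3241 and 3704 in the PBS samples at 24 h, and 7640 and 7043 in the ragweed samples of that time. At 72 h it was 2151 and 2268 with PBS, and 5821 and 4591 with ragweed. All 4 ragweed samples lay above all 4 PBS samples. Gsto1 rose 2.12-fold at 24 h (log2 difference 1.08 ± 0.13, adjusted p = 0.0219) and 2.34-fold at 72 h (1.23 ± 0.13, adjusted p = 0.00779). The mean over both times was 1.15 ± 0.09 (adjusted p = 0.00124), and the difference between the times was 0.14 ± 0.19 (adjusted p = 0.903). Gsto1 was the only member with both ragweed samples above both PBS samples at each time, a pattern held by 4.53% of all genes.

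Gsto1 was also called at 72 h on version 2 of the A array, which has no 24 h ragweed arrays here. There it stood at 2749 and 2840 in the PBS samples of 72 h and at 4668 and 4645 in the ragweed samples, a difference of 0.74 ± 0.10 (adjusted p = 0.0459), smaller than on the first version. The ratio of the 3′ to the 5′ actin control was 0.19 and 0.20 on these PBS arrays and 0.80 and 0.58 on these ragweed arrays. It was 0.80 to 0.97 on all first-version A arrays, with 0.80 and 0.97 for the PBS samples of 72 h. The cause of the low ratios on version 2 was not tested. The PBS level itself was lower at 72 h than at 24 h on both versions, by -0.65 ± 0.13 (adjusted p = 0.164) and -0.61 ± 0.10 (adjusted p = 0.127). The ragweed samples of 72 h lay 0.58 ± 0.13 above the earlier PBS group, which was not called (adjusted p = 0.117). The call at 24 h was lost when any 1 of the 8 samples was left out (adjusted p from 0.0602 to 0.184), and the call at 72 h was kept without either PBS sample of 24 h and lost without any of the other 6 (0.0593 to 0.119). The mean of both times was called in all 8 of these fits.

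Cell type markers moved in the same comparison. Of 9 genes of mucous and goblet cells 7 were tested, and 5 rose at each time. Their summed intensity was 5751 to 6291 and 48965 to 60598 at 24 h with PBS and ragweed, and 10947 to 12604 and 40023 to 40349 at 72 h. The mucin Muc5ac was not among the genes tested. Of 10 macrophage and monocyte markers 8 were tested, with Marco and Adgre1 not among them. None of the 8 was called at 24 h, and Mpeg1 rose at 72 h. With ragweed 5 of the 8 were higher and 3 lower at 24 h (median difference 0.25). At 72 h 6 were higher and 2 lower (median 0.47). The summed intensity at 24 h was 48111 to 55932 with PBS and 35473 to 35758 with ragweed. At 72 h it was 45206 to 49127 and 39279 to 47214. The brightest of the 8 had a mean intensity of 35178, so these sums follow mainly that gene. Of 5 tested B and plasma cell genes 2 rose at 24 h and 3 at 72 h, with sums of 7004 to 7549 and 17521 to 17877 at 24 h, and 14707 to 14792 and 40542 to 47954 at 72 h. Of 10 endothelial genes none was called at either time, whereas in the mean of both times Vwf rose and Cdh5 and Kdr fell. The smooth muscle gene Acta2 rose at 72 h. The part of any cell type in the Gsto1 difference was not tested. In whole lung, fewer cells of a type and less RNA per cell cannot be told apart.

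Gsto2, the other omega member, was read by a C probe set whose suffix (_f_at) marks probes shared within a gene family. Its intensity was 245 and 306 with PBS and 245 and 785 with ragweed at 24 h, and 245 and 578 with PBS and 298 and 465 with ragweed at 72 h, so the groups overlapped at both times. The differences were 0.68 ± 0.65 at 24 h and -0.01 ± 0.65 at 72 h. Both omega genes lie on mouse chromosome 19.

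The promoters of 3 of the 4 called genes are given, Gsto1 and Cyp4b1 from ragweed against PBS and Gsta2 from the comparison of the PBS times. Gstm1 is left out because its difference was near 0 on version 2 of the array. They run from 250 bases before to 50 after the RefSeq start on GRCm38.p6, 5′ to 3′ on the gene's strand. Capitals mark GCGTG, the core bound by the aryl hydrocarbon receptor with its partner Arnt, or TGACNNNGC, the antioxidant response element core, on either strand.
Gsto1, chr19:47854723-47855022, plus strand: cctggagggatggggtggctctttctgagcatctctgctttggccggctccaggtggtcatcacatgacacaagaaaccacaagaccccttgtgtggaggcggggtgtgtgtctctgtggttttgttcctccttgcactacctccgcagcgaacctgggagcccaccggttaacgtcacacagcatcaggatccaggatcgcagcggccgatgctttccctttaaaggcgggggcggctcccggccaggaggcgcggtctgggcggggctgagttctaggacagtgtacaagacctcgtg
Cyp4b1, chr4:115647672-115647971, minus strand: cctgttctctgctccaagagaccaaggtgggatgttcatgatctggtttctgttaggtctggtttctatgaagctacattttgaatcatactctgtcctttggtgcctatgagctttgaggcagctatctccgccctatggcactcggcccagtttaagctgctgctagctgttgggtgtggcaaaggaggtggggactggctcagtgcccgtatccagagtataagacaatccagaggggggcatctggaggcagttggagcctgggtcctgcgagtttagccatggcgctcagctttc
Gsta2, chr9:78347096-78347395, minus strand: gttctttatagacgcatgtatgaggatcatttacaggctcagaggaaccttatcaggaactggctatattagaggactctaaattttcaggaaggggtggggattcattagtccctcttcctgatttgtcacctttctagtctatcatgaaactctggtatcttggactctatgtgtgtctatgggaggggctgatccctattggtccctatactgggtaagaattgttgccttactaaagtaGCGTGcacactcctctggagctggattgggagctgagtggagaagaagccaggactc
Neither motif is in the Gsto1 or the Cyp4b1 window, and GCGTG occurs once in that of Gsta2. RefSeq promoters were at hand for 64 of the 78 members. Taking the first promoter listed for each gene, TGACNNNGC was in 5 of the 64 (7.81%) and in 12.5% of 27025 genes, and GCGTG in 16 of the 64 (25.0%) and in 32.5% of all. Over all promoters of each gene these counts were 7 (10.9%, against 14.0% of all genes) and 16 (25.0%, against 35.2%). These letters describe the windows and say nothing of binding.

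The mu class, 7 genes on mouse chromosome 3 that conjugate epoxides and aromatic electrophiles, gave 6 tested genes with a median log2 difference of 0.05 at 24 h and -0.25 at 72 h. Gstm1 was called at 72 h on the first version of the A array. Its A probe set read 16454 and 14873 with PBS and 9663 and 9870 with ragweed at 72 h, without overlap. It fell 1.60-fold there (-0.68 ± 0.10, adjusted p = 0.0360), and differed by 0.07 ± 0.10 at 24 h, where the values were 14309 and 12628 with PBS and 13317 and 14873 with ragweed. Version 2 of the array did not show it: the same probe set read 13916 and 13676 with PBS and 14589 and 12693 with ragweed at 72 h, a difference of -0.02 ± 0.12 (adjusted p = 0.986). These are the version 2 arrays whose actin ratios differed between PBS and ragweed, and the part of that in the gap between versions was not tested. The call was lost when any 1 of the 8 samples was left out (adjusted p from 0.0854 to 0.219).

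The 4 probe sets of Gstm1 disagreed with each other at 72 h. The other 3, on the C array, gave -0.85 ± 0.32 (suffix _f_at), 0.01 ± 0.58 (_i_at) and 0.65 ± 0.38 (_r_at), none of them called. Mu class genes are close in sequence and these probe sets carry suffixes for shared or relaxed probes, so the signal may be split among relatives, which was not tested. The Gstm1 difference at 72 h is uncertain, since neither the probe sets nor the array versions gave 1 value.

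Markers of other tissues moved in the comparison at 72 h. Of 11 tested genes of squamous epithelium 5 fell, among them the keratins Krt4 and Krt13, with a summed intensity of 53059 to 56002 with PBS and 18776 to 24324 with ragweed. Of 13 tested heart and skeletal muscle genes Myl7 and Nppa fell, with sums of 33953 to 36439 and 20624 to 21086. At 24 h none of the squamous genes was called and the muscle actin Acta1 rose, with squamous sums of 18045 to 20704 and 20202 to 21603 and muscle sums of 16148 to 16831 and 20740 to 22765. Their part in the Gstm1 difference was not tested.

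The other mu genes were not called. Gstm2 read 5178 and 4380 with PBS and 3582 and 3929 with ragweed at 72 h (-0.34 ± 0.12, adjusted p = 0.386), and 3857 and 3773 against 3597 and 3153 at 24 h (-0.18 ± 0.12), so its ragweed samples lay below its PBS samples at each time. Version 2 gave the same size at 72 h, -0.34 ± 0.13 (adjusted p = 0.398). Gstm3 read 3541 and 4155 with PBS and 2749 and 1892 with ragweed at 72 h, a difference of -0.75 ± 0.21 (adjusted p = 0.263) against -0.40 ± 0.11 on version 2. Its second A probe set gave 0.19 ± 0.19. Gstm4, Gstm5 and Gstm7 differed by -0.16 ± 0.43, 0.00 ± 0.15 and -0.10 ± 0.49 at 72 h. Of the 5 Gstm5 probe sets, the A probe set with suffix _r_at had opposite signs on the array versions at 72 h, with -1.36 ± 0.62 and 1.26 ± 0.58. So did another A probe set, above the floor on 3 first-version arrays, with 0.37 ± 0.15 and -0.59 ± 0.16.

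The alpha class, which conjugates and reduces products of lipid peroxidation, had 3 tested genes, none called in ragweed against PBS. Gsta4, the form with a preference for 4-hydroxynonenal, read 626 and 806 with PBS and 292 and 421 with ragweed at 24 h, the first ragweed value being the floor. At 72 h it read 618 and 648 against 496 and 330. Both ragweed samples were below both PBS samples at each time, with differences of -1.02 ± 0.31 (adjusted p = 0.362) and -0.65 ± 0.31 (adjusted p = 0.576), and a mean of -0.83 ± 0.22 (adjusted p = 0.211). On version 2 the 72 h difference was -0.30 ± 0.24. Gsta3 differed by -0.49 ± 0.29 at 24 h and -0.08 ± 0.29 at 72 h, and by -0.97 ± 0.22 on version 2 (adjusted p = 0.187). Gsta2 differed by -0.16 ± 0.16 at 24 h and 0.48 ± 0.16 at 72 h (adjusted p = 0.349). Gsta1, outside the main comparison, had a probe set on the first version alone. At 24 h it read 472 and 476 with PBS and lay at the floor of that fit, 265, in both ragweed samples. The difference of -0.84 is therefore a bound and was not called (adjusted p = 0.0645).

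Gstp1, the pi class enzyme abundant in airway epithelium, was lower with ragweed at each time but not called. Its intensity was 8684 and 8611 with PBS and 6899 and 6195 with ragweed at 24 h, and 6351 and 6747 against 5739 and 5544 at 72 h. The differences were -0.40 ± 0.09 (adjusted p = 0.205) and -0.21 ± 0.09 (adjusted p = 0.506), and the mean was -0.31 ± 0.06 (adjusted p = 0.0990). Version 2 gave -0.07 ± 0.12 at 72 h. Gstp3 overlapped between the groups at both times, with -0.11 ± 0.53 and -0.20 ± 0.53.

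The remaining transferases showed no called difference. Among the theta genes, which act on small halogenated compounds and epoxides, Gstt1 gave -0.32 ± 0.16 and 0.26 ± 0.16 at the 2 times, Gstt2 0.45 ± 0.54 and -0.45 ± 0.54, Gstt3 -0.64 ± 0.45 and -0.67 ± 0.45, and Gstt4, near the floor, -0.26 ± 0.24 and -0.24 ± 0.24. On version 2 of the A array Gstt1 and Gstt2 had opposite signs at 72 h, with -0.19 ± 0.14 and 0.50 ± 0.22. The first version of the B array also reversed Gstt3, with 0.74 ± 0.55 at 24 h and 0.08 ± 0.55 at 72 h. Gstk1, the mitochondrial and peroxisomal kappa form, stayed between 792 and 1171 in all samples, with -0.07 ± 0.25 and -0.01 ± 0.25. Mgst1, which is both a transferase and a peroxidase, gave 0.02 ± 0.12 and -0.01 ± 0.12 with all samples between 3485 and 4502. Mgst2, which can form leukotriene C4, read 292 and 314 with PBS and 416 and 397 with ragweed at 24 h, but 436 and 434 with PBS and 329 and 292 with ragweed at 72 h. Its differences were 0.42 ± 0.16 and -0.49 ± 0.16, and the difference between the times, -0.91 ± 0.22, was not called (adjusted p = 0.437). Mgst3 gave 0.24 ± 0.18 and -0.05 ± 0.18. A second Mgst3 probe set, on the B array, gave 0.04 ± 0.74 and 1.30 ± 0.74. At 72 h it read 2148 in 1 ragweed sample and lay at the floor in the other and in both PBS samples.

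Among the P450 genes Cyp4b1 was called in the mean of both times. Cyp4b1 hydroxylates fatty acids and activates furans such as 4-ipomeanol, and is a major P450 of lung. Its family probe set read 13607 and 13846 with PBS and 10848 and 11639 with ragweed at 24 h. At 72 h it read 13607 and 12576 with PBS and 9371 and 9071 with ragweed. The 4 ragweed samples lay below the 4 PBS samples. The fall was 1.32-fold in the mean (-0.40 ± 0.06, adjusted p = 0.0348), with -0.29 ± 0.09 at 24 h (adjusted p = 0.350) and -0.50 ± 0.09 at 72 h (adjusted p = 0.0596). The 72 h difference was called when 4 arrays had to lie above the floor (adjusted p = 0.0392) or when each table was adjusted separately (0.0216). In the mean, the call was lost with the sample letter as a replicate block (adjusted p = 0.0780) and without the mean-variance trend (0.205). On version 2 Cyp4b1 was lower at 72 h by -0.20 ± 0.15 (adjusted p = 0.686), with 12130 and 10999 for PBS and 10313 and 9768 for ragweed. The call was lost when any 1 of the 8 samples was left out (adjusted p from 0.0861 to 0.161). The arrays also carry a Cyp4b1 pseudogene, and signal from the gene and from the pseudogene cannot be told apart with a family probe set.

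Cyp2b10, an airway P450 induced through the receptor Nr1i3 in liver, was lower with ragweed at each time and not called. It read 7311 and 6971 with PBS and 5510 and 5709 with ragweed at 24 h, and 4454 and 4872 against 3773 and 4126 at 72 h. The differences were -0.35 ± 0.09 (adjusted p = 0.298) and -0.24 ± 0.09 (adjusted p = 0.468), with a mean of -0.29 ± 0.07 (adjusted p = 0.140). Version 2 gave -0.39 ± 0.20 at 72 h. Gsta4, Cyp4b1, Gstp1, Cyp2b10 and Gstm2 were the 5 members with both ragweed samples below both PBS samples at each time, a pattern held by 4.83% of all genes.

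The marker lists of ciliated, alveolar type I and type II cells, with 7, 7 and 9 tested genes, had no called gene in ragweed against PBS at either time. Club cell markers did move: of 12 genes 9 were tested, with Scgb3a1, Sult1d1 and Bpifa1 not among them, and 3 rose at 24 h, while at 72 h 1 rose and 1 fell. Their summed intensity was 66776 to 69695 and 119478 to 129822 at 24 h with PBS and ragweed, and 135044 to 143336 and 120271 to 122046 at 72 h. The part of club cells in the Cyp4b1, Cyp2b10 and Gstp1 values was not tested.

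**Figure D2:**
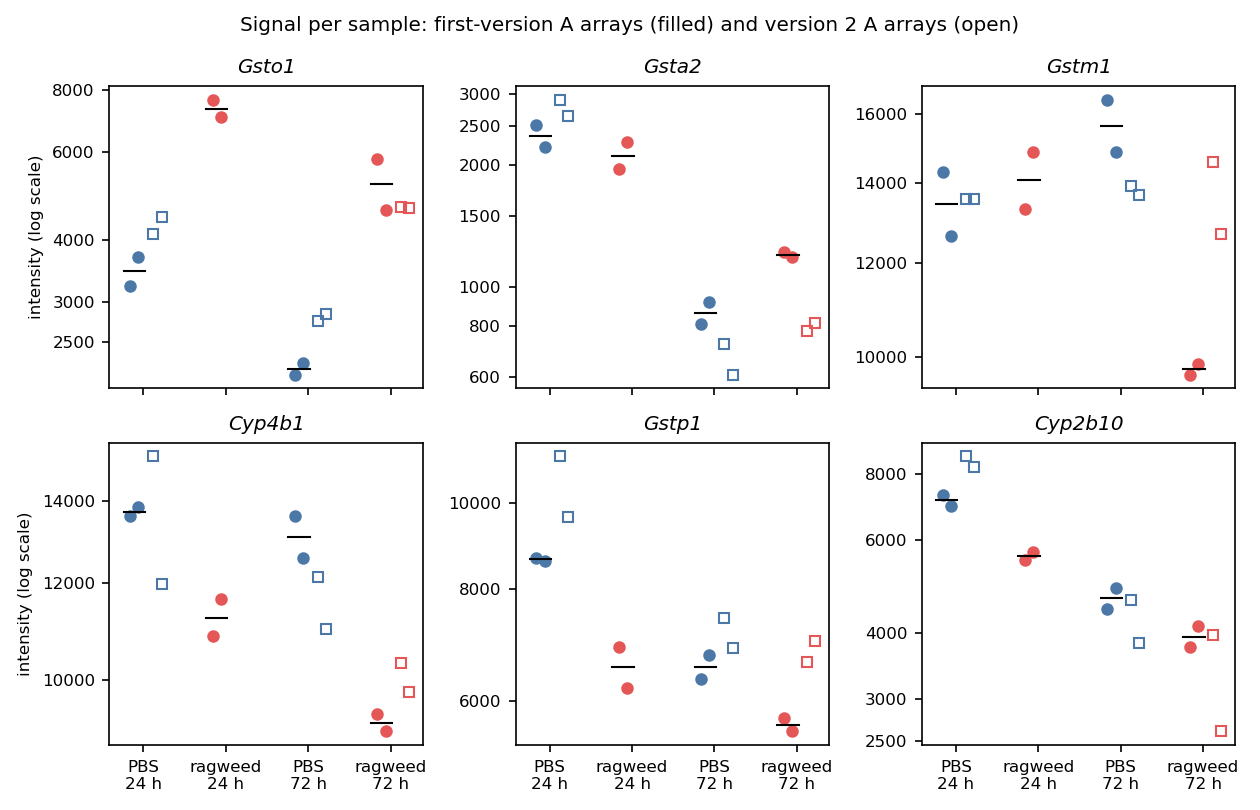
Intensity (y axis, log scale) of 6 genes in every sample of the 4 groups (x axis). Filled circles are the first-version A arrays with the geometric mean of the 2 samples as a bar, open squares are the version 2 A arrays, which have no ragweed samples of 24 h, blue is PBS and red is ragweed. Gsto1 lies between 4591 and 7640 in the ragweed samples and between 2151 and 3704 in the PBS samples of the first version, and Gstm1 separates the 72 h groups on the first version only.

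None of the other P450 genes was called in ragweed against PBS. Cyp1a1, the classical target of the aryl hydrocarbon receptor, read 351 and 663 with PBS and 465 and 401 with ragweed at 24 h, and 971 and 970 against 605 and 663 at 72 h. Its ragweed samples lay below its PBS samples at 72 h and between them at 24 h. The difference at 72 h was -0.62 ± 0.33 (adjusted p = 0.635) and -0.74 ± 0.35 on version 2 (adjusted p = 0.504). Cyp1b1 was not above the floor on 2 arrays. Cyp2e1, which oxidises ethanol and small solvents, gave 0.07 ± 0.23 and 0.02 ± 0.23, and Cyp2s1, an epithelial P450, gave 0.07 ± 0.18 and 0.10 ± 0.18, with all samples of Cyp2s1 between 1306 and 1742. The 14 tested Cyp2 genes had median differences of 0.04 at 24 h and 0.01 at 72 h. The highest of them at 24 h was Cyp2c39, with 1.09 ± 0.55 (adjusted p = 0.661), where 1 PBS sample lay at the floor and the other at 1231. The lowest at 72 h was Cyp2c69, with 771 and 1195 for PBS and 675 and 425 for ragweed (-0.84 ± 0.44, adjusted p = 0.608), and it gave 0.11 ± 0.50 on the other version of the B array.

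Cyp27a1, the mitochondrial sterol 27-hydroxylase, read 2815 and 3394 with PBS and 4158 and 5372 with ragweed at 24 h, and 5458 and 5047 against 4743 and 4404 at 72 h. The differences were 0.61 ± 0.19 (adjusted p = 0.340) and -0.20 ± 0.19, and the first version of the B array gave 0.12 ± 0.15 at 24 h. Cyp20a1, a P450 without an established substrate, differed by 1.03 ± 0.33 at 72 h (adjusted p = 0.299) and by -0.09 ± 0.18 on the first version of the B array. The Cyp4f genes, which hydroxylate leukotriene B4 and other fatty acids, gave 0.24 ± 0.29 (Cyp4f14), 0.47 ± 0.45 (Cyp4f15) and 0.64 ± 0.38 (Cyp4f16) at 72 h, none called. On the first version of the B array their signs were opposite, with -0.37 ± 0.28, -0.29 ± 0.44 and -0.28 ± 0.47. Cyp7b1, the oxysterol hydroxylase, lay at or just above the floor on its first-version A probe set, at no more than 335. A family probe set found on version 2 alone read 360 and 267 with PBS and 294 and 527 with ragweed at 72 h. Its difference was 0.35 ± 0.32 (adjusted p = 0.604). The single tested members of Cyp3, Cyp11, Cyp21, Cyp39 and Cyp46 differed by 0.19 ± 0.22, 0.80 ± 0.72, -0.38 ± 0.21, -0.02 ± 0.31 and 0.50 ± 0.41 at 72 h.

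Whether the response differed between the times was tested directly, and limma called 0 of 49 members, with a background of 0.0312%. At an unadjusted p below 0.05 there were 6 (12.2%, background 7.87%): Gstm1, Mgst2, Cyp27a1, Gsta2, Gstm3 and Gstt1. The value of largest size was -1.45 ± 0.78 for Cyp2c39.

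The PBS groups differed from each other in 1 member. Gsta2, an alpha class enzyme known for its induction through Nfe2l2 (NRF2), read 2505 and 2215 in the PBS samples at 24 h and 808 and 918 at 72 h. It was 2.73-fold lower at 72 h (-1.45 ± 0.16, adjusted p = 0.0108). Thus 1 of 49 members was called (2.04%, background 0.405%), and 10 of 49 had an unadjusted p below 0.05 (20.4%, background 9.54%). The ragweed samples were likewise lower at the later time, with 1954 and 2272 at 24 h and 1218 and 1184 at 72 h. Version 2 showed the PBS difference again, from 2897 and 2639 to 722 and 607 (-2.06 ± 0.16, adjusted p = 0.00937). The call on the first version was lost when any 1 of the 8 samples was left out (adjusted p from 0.0676 to 0.128).

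Other members differed between the PBS times without a call. Gsta3 was lower at 72 h by -0.65 ± 0.29 and by -0.72 ± 0.22 on version 2, and Cyp2b10 by -0.62 ± 0.09 (adjusted p = 0.0545), with 8638 and 8241 at 24 h and 4626 and 3831 at 72 h on version 2 (adjusted p = 0.192). Gstp1 gave -0.40 ± 0.09 and -0.55 ± 0.12. Gsta4 gave -0.17 ± 0.31 on the first version and -1.12 ± 0.24 on version 2. Gsta1, read by a probe set found on the first version alone, stood at 472 and 476 in the PBS samples of 24 h and at the floor of that fit, 265, in all 6 other samples. Its difference of -0.84 (adjusted p = 0.0625) is therefore a bound, and its spread at 72 h was removed by the floor. Cyp1a1 was higher at 72 h by 1.01 ± 0.33 (adjusted p = 0.437) and 1.17 ± 0.35, and Cyp27a1 by 0.76 ± 0.19 (adjusted p = 0.220), against 0.04 ± 0.15 on the other version of the B array. Cyp2u1 and Cyp2c69 were higher by 1.16 ± 0.40 and 0.81 ± 0.44, against 0.01 ± 0.57 and 0.03 ± 0.50 on the first version of their arrays. Cyp2c38 was lower by -0.85 ± 0.44, which became 0.60 ± 0.38 on version 2.

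Markers of other tissues also differed between the PBS groups. Of 13 genes of squamous epithelium 11 were tested and 4 were higher at 72 h. Of 14 heart and skeletal muscle genes 13 were tested and 1 was called, Acta1, which was higher at 72 h. The squamous and muscle sums of both PBS groups are given above. Higher at 72 h were also 2 of 7 mucous, 2 of 5 B and plasma cell and 1 of 7 fat cell genes. Sums at 24 h and 72 h were 5751 to 6291 and 10947 to 12604 for mucous, 7004 to 7549 and 14707 to 14792 for B and plasma, and 3985 to 4760 and 6907 to 7637 for fat cells. For club cells 5 of 9 tested genes were higher at 72 h, with the sums given above. The actin ratio was 0.91 to 0.95 at 24 h and 0.80 to 0.97 at 72 h on the first version, and 0.44 to 0.54 and 0.19 to 0.20 on version 2. Their part in the Gsta2 difference was not tested.

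**Figure D3:**
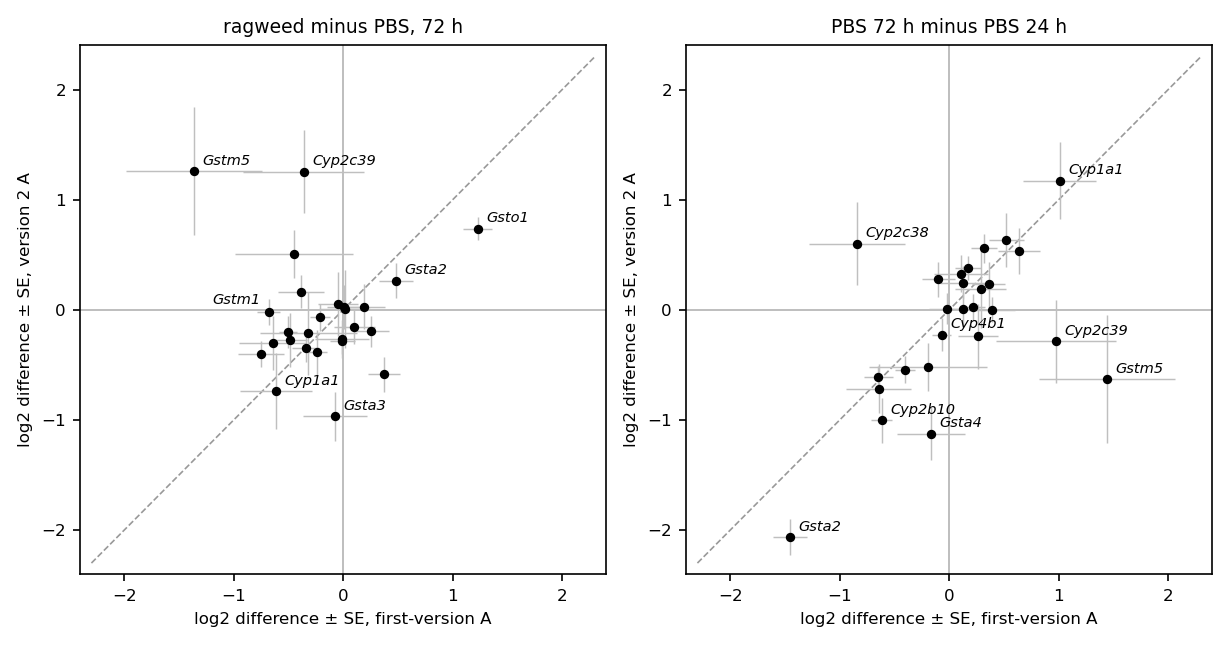
Log2 difference ± SE of 26 member probe sets on the first version of the A array (x axis) and on version 2 (y axis), for ragweed minus PBS at 72 h (left) and PBS at 72 h minus PBS at 24 h (right), with the line of equal values dashed. Gsto1 (1.23 and 0.74) and Gsta2 (-1.45 and -2.06) kept their direction on both versions, whereas Gstm1 at 72 h was -0.68 on the first version and -0.02 on version 2.

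Arrays of both versions carry the same sample codes, so their results can be set side by side. Over 26 member probe sets tested on both A versions, the median gap was 0.27 at 72 h and 0.20 between the PBS times, and the widest 2.62 and 2.07. Over 19 member probe sets of the B and C arrays the median gap was 0.30 at 24 h and 0.57 at 72 h.

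Genes that supply or support these enzymes were described beside them. Of 20 tested genes of glutathione synthesis, recycling and transport, none was called in ragweed against PBS at either time, with medians of -0.14 at 24 h and 0.00 at 72 h. Between the PBS times 2 of 20 were called, both lower at 72 h. Gclc, the catalytic subunit that limits glutathione synthesis, read 1615 and 2033 at 24 h and 748 and 627 at 72 h (-1.40 ± 0.19, adjusted p = 0.0300). Slc7a11, the cystine importer, read 2367 and 2579 at 24 h and lay at the floor in both PBS samples of 72 h, so the log2 difference of -2.79 is a bound and the true difference may be larger (adjusted p = 0.0120). It read 972 and 781 in the ragweed samples of 24 h. The peroxidase Gpx2 gave -1.29 (adjusted p = 0.0543) and the glutathione-degrading Chac1 gave -1.05 (adjusted p = 0.115) between the PBS times. The list's median there was -0.32, and that of all genes 0.00.

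**Figure D4:**
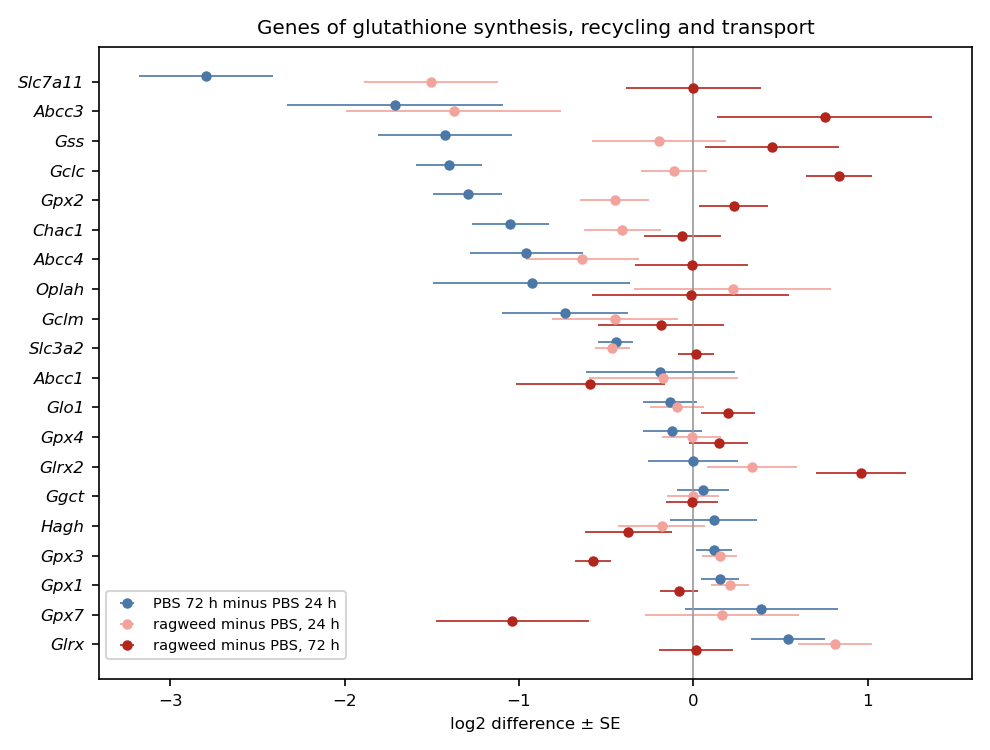
Log2 difference ± SE (x axis) of the 20 tested genes of glutathione synthesis, recycling and transport (y axis, ordered by the PBS difference), for PBS at 72 h minus PBS at 24 h (blue) and for ragweed minus PBS at 24 h (light red) and 72 h (dark red). Slc7a11 and Gclc, with an adjusted p below 0.05 between the PBS times, lie at -2.79 and -1.40, and Slc7a11 is a bound because PBS at 72 h lay at the floor.

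None of the 12 tested genes of P450 redox partners and haem supply was called in ragweed against PBS or between the PBS times. Their medians were -0.01 at 24 h and 0.03 at 72 h, with ranges of -0.61 to 0.51 and -0.53 to 0.92. Fdx1, the ferredoxin of the mitochondrial P450 enzymes, was higher with ragweed by 0.51 (adjusted p = 0.365) and 0.65 (adjusted p = 0.177), and Alas1, which starts haem synthesis, gave -0.19 and -0.36. Of 27 other oxidation and hydrolysis enzymes none was called, with the aldehyde dehydrogenase Aldh3a1 at -1.11 at 72 h (adjusted p = 0.0942) and the aldehyde oxidase Aox3 at 1.02 at 24 h (adjusted p = 0.0894). The aldo-keto reductase Akr1b8 gave -1.20 between the PBS times (adjusted p = 0.0547). Of 6 tested genes for other conjugations and of 12 xenobiotic receptors and partners, none was called in these 3 comparisons. In ragweed against PBS the 12 receptors and partners ranged from -2.03 to 0.45 at 24 h and from -0.71 to 0.73 at 72 h. Among them Ahr gave 0.08 and -0.48, Nfe2l2 -0.18 and -0.13, and Nr1i3 0.05 and -0.24 at the 2 times.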

How the data were processed

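Lung RNA of 8 samples was measured on 47 Affymetrix murine U74 arrays of 6 types. The deposited values are linear intensity per probe set. The software behind them was not given in the sources used here. First-version PBS arrays had 2% trimmed means from 80.6 to 376.5 and the other arrays about 800, apart from an unlettered first-version array. That array equalled the ragweed 24 h 1a array over 2.63 throughout and was counted with it, which leaves 46 distinct arrays. Among the lettered first-version arrays the deposited scale thus followed treatment. There the 2 cannot be told apart, and the part of the deposited scale in the differences was not tested. The tables used were first-version A (9977 probe sets also on version 2, scaled to 800, quantile normalized), version 2 B and version 2 C. Each table was then floored at its 40th percentile. Log2 values were fitted with limma 3.58.1 in R 4.3.3 (1 mean per group, 4 residual degrees of freedom, eBayes with trend), with Benjamini-Hochberg over the 3 tables (6896, 9190 and 9164 probe sets tested). Values on the other array version come from the same fit on the 3 other tables, adjusted over those. For probe sets on 1 version of the A array alone (of Cyp4v3, Cyp7b1, Gstz1 and Gsta1) the adjustment ran over that table.

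Raising values to the floor removes spread, so errors of probe sets at the floor may be too small. Each gene was read by 1 probe set, A before B before C, then the highest mean. Named were called genes, genes whose ragweed samples lay beyond the PBS samples on one side at both times, the 10 with the highest mean, the 5 with the most positive and most negative PBS difference, and a fixed list. The members and lists were chosen with earlier results of these data known. The fit was tested on simulated data. Other floors, filters, normalizations, array versions, PBS references, a block, probe set rules and fits without 1 sample were tried.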

Additional observations from a re-analysis of the deposited data

How the results depend on the processing

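The counts of members called at 24 h, at 72 h, in the mean of both times, between the times and between the PBS times were 1, 2, 2, 0 and 1. At 72 h 1 was called with the floor at the 20th percentile, with the other normalization and with the other array version. Against the PBS samples of both times 4 were called: Gsto1, Gstm1, Cyp4b1 and Cyp2b10. Against those of the other time 4 were called as well, but they were Cyp2b10, Cyp4b1, Gsta2 and Gstp1. Gsto1 (adjusted p = 0.117) and Gstm1 (adjusted p = 0.109) were not among them. The 72 h count was 3 when 4 arrays had to lie above the floor or when tables were adjusted separately, with Cyp4b1 added. Separate adjustment also gave 3 in the mean, with Gstp1 added (adjusted p = 0.0395). At 24 h 2 were called against the PBS samples of the other time, Gsto1 and Gsta2 (1.29). Between the PBS times 2 were called when 4 arrays had to lie above the floor or when tables were adjusted separately, Gsta2 and Cyp2b10. Without the mean-variance trend the counts were 0 at 24 h, 0 at 72 h and 1 in the mean. The letters 1a and 1b did not mark samples that deviate together (correlations of -0.046 to 0.035 over 6 pairs of groups), and with the letter as a replicate block the counts were 1 at 72 h and 1 in the mean, and Gsto1 was still called at both times (adjusted p = 0.0402 and 0.0182). The fits without 1 sample gave 0 to 0 at 24 h, 0 to 1 at 72 h, 1 to 1 in the mean, 0 to 0 between the times and 0 to 0 between the PBS times. Between the PBS times Cyp2c39 turned from 0.97 to -0.29 and Cyp2c38 from -0.85 to 0.60 on the other array version, and the fits without 1 sample gave Cyp2c39 values from -0.066 (without PBS 24 h replicate 1b, whose value was at the floor) to 2.01. The cause was not tested. The mean of both times for Gsto1 was called in all 15 alternatives that could be run (1.07 to 1.24, adjusted p up to 0.0447). The other array version gave no value for 24 h, the mean or the difference between the times, since version 2 A had no ragweed arrays of 24 h here. With 2 samples per group and median errors of 0.23 on A, 0.32 on B and 0.45 on C, small differences could not be called.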
